A study of Homo sapiens with 58 samples.

Results

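In this CLIP-seq study, RNA crosslinked by UV light to the RNA-binding protein HuR, the product of ELAVL1, was immunoprecipitated and sequenced. The peaks described here lie in introns of genes in which no exonic peak was called. A gene entered when it had fewer than 100 peaks annotated as intron and no peak annotated as 3'UTR, 5'UTR or CDS. This left 16724 intron peaks in 3125 genes, which is 7.78% of the 214982 intron peaks and part of 387214 peaks in all. The genes were chosen by the presence or absence of called peaks, so the number of peaks per gene and the lack of exonic peaks are not results. Differences between libraries were not part of the choice.

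All 58 libraries came from Huh-7.5, a human hepatocellular carcinoma line, with HuR pulled down by the 3A2 antibody. Wild-type cells without an APEX reaction were separated into nuclear and cytoplasmic fractions, with 3 libraries per fraction for mock treatment and 3 for 0.5 mM sodium arsenite over 45 min. The other libraries came from lines carrying the peroxidase APEX, which biotinylates its surroundings in the presence of hydrogen peroxide and biotin phenol: APEX-NLS (nuclear), APEX-NES (cytoplasmic) and APEX-G3BP1 (the stress granule protein G3BP1). Inputs are libraries of the HuR immunoprecipitation alone, and enriched libraries had a streptavidin capture added. There were 2 inputs and 4 enriched libraries for APEX-NLS under either treatment, and as many for APEX-NES. For APEX-G3BP1 there were 4 inputs from mock cells, 5 from arsenite cells, and 6 and 7 enriched libraries. The labels do not say whether replicates were separate cultures, so p-values measure only the spread between these libraries. Each tagged line is represented by its own cells only, and all fraction libraries belong to the library set JL0380, so fractionation and that set cannot be told apart.

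HuR binds U-rich and AU-rich stretches of RNA. It shuttles between nucleus and cytoplasm: in the nucleus it contacts introns of unspliced transcripts, and in the cytoplasm it is best known for stabilising mRNAs through their 3'UTRs. Introns are normally removed before export, and most intronic RNA is nuclear. Arsenite is an oxidative stressor that halts translation and drives mRNA and its binding proteins into stress granules.

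A tag is a sequenced CLIP fragment, and levels are given as CPM, the usual scaling of tags to the library total. Tags in peaks numbered 235471 to 673322 per fraction library, 1353 to 484305 per input and 519 to 86419 per enriched library, and 5 libraries had fewer than 2000. Of 12 hepatocyte markers, 10 had a tag in the fraction libraries and 8 had one in all 12, with APOA1 and TTR at 0. Their summed level was 813 to 2900 CPM (2899.8 at the highest). By contrast 1 of 5 fibroblast, 2 of 4 leukocyte and 2 of 3 endothelial markers had a tag, with summed levels of at most 21.1 CPM.

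Sequence could be read for the 20 of these peaks that fall in RefSeq promoter windows, the short stretches around annotated gene starts (assembly GRCh38.p14). They are examples of 20-nt HuR peaks in such windows, most of which belong to another gene than the one that names the peak. Of those printed, the ALDH4A1 peak lies in the window of LOC124903866 and the JMJD6 peak in that of METTL23, both on the opposite strand, and the others in the window of their own gene. Runs of at least 3 T, which are U in the RNA, are in capitals, and each sequence is written 5′ to 3′ on the strand of the peak.
ALDH4A1, a mitochondrial dehydrogenase gene (chr1:18901915-18901935, minus strand): TTTTTcaagttaaatgttgg
AKR1D1, a steroid reductase of bile acid synthesis (chr7:138076257-138076277, plus strand): atcTTTTgttgtgaagaagt
JMJD6, a nuclear oxygenase gene (chr17:76725859-76725879, minus strand): acaggtcTTTTTTaattccc
UBQLNL, a ubiquilin-like gene (chr11:5516849-5516869, minus strand): TTTTaTTTTattgtagagcc
CDKL4, a kinase gene (chr2:39229815-39229835, minus strand): aattcTTTTagttcaactga
EEF1B2, an elongation factor gene (chr2:206159719-206159739, plus strand): cttccaaacgcaacgaaagg
The sequences of ALDH4A1, AKR1D1, JMJD6, UBQLNL and CDKL4 were chosen for their T runs and that of EEF1B2 for having none. The strand of the peak was searched for 3 motifs: TTT was found in 15 of the 20 peaks (75%), a run of 5 T in 2 (10%) and ATTTA in none. Among all 576 table peaks that fall in such windows the shares were 55.4%, 13.9% and 5.03%, in that order. The longer T run contains the shorter one, and 20 sequences in promoter windows do not stand for introns in general. The AKR1D1 peak held 3.84 ± 2.01 CPM (SD, n = 3) in the mock nuclear libraries and 0.355 ± 0.614 in the mock cytoplasmic ones. The EEF1B2 peak, without a T run, held 1.41 ± 0.428 and 3.48 ± 1.19.

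As chosen, these genes carried few peaks, which is a description only. The median was 2 intron peaks per gene, and 1305 genes (41.8%) had 1 peak, 1399 had 2 to 9, 385 had 10 to 49 and 36 had 50 or more. Genes with an exonic peak and fewer than 100 intron peaks (6176 genes, 117114 peaks) had a median of 10, and genes with 100 or more (442 genes, 80185 peaks) a median of 146. The first 2 classes had median gene lengths of 45.8 and 48.1 kb, and 0.592 and 2.25 peaks per 10 kb, a density that follows from the choice by called peaks and is no result. Of the 3095 genes found in RefSeq, 2855 are protein coding, 222 are pseudogenes and 17 are long non-coding. A median member peak held 5 tags over the 12 fraction libraries, and the 167 highest peaks (1%) held 14.8% of the summed level. RefSeq places 15510 of 16613 matched peaks inside the span of the gene that names them, at a median of 0.429 of the way along it. Position within the gene was much the same in the other classes (0.445 and 0.429).

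As counted here, these peaks lay inside other annotated genes more often than other intron peaks did. Of the member peaks, 12.2% fell in another RefSeq gene, against 8.54% for genes with an exonic peak and 7.32% for genes with 100 or more intron peaks. Any protein-coding or long non-coding gene of a different name was counted, also where both annotations cover the same locus. Of the member genes 222 are themselves pseudogenes, against 1 and 0 in the other classes. The choice of genes without exonic peaks may favour such overlapping names, so the difference may follow from it, which was not tested. A RefSeq pseudogene of at most 20000 bp covered 274 peaks (1.64%), against 0.459% and 0.266%. The 274 peaks lie in 158 pseudogenes hosted by 151 genes. A processed pseudogene is a reinserted copy of an mRNA, so tags there may come from the pseudogene or from the near-identical parent mRNA. Strands of the pseudogenes were not compared here, and the source of these tags was not tested.

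Summed over all their peaks, the members held a small share of each library's tags that was higher in the nuclear than in the cytoplasmic libraries. In the mock nuclear libraries the share was 2.89, 2.90 and 2.93%, and in the mock cytoplasmic libraries 2.20, 2.07 and 2.12%. All other named intron peaks together held 50.8 ± 0.346% of tags (SD, n = 3) in the nuclear and 28.2 ± 3.68% in the cytoplasmic mock libraries. After arsenite, the members held 2.73, 2.81 and 2.84% in the nuclear and 2.53, 2.54 and 2.65% in the cytoplasmic libraries. As shares of tags in peaks the fractions did not overlap in either treatment. The log2 ratio of nuclear over cytoplasmic shares was 0.45 in mock and 0.12 in arsenite cells, and over library totals 0.31 and 0.057.

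**Figure D1:**
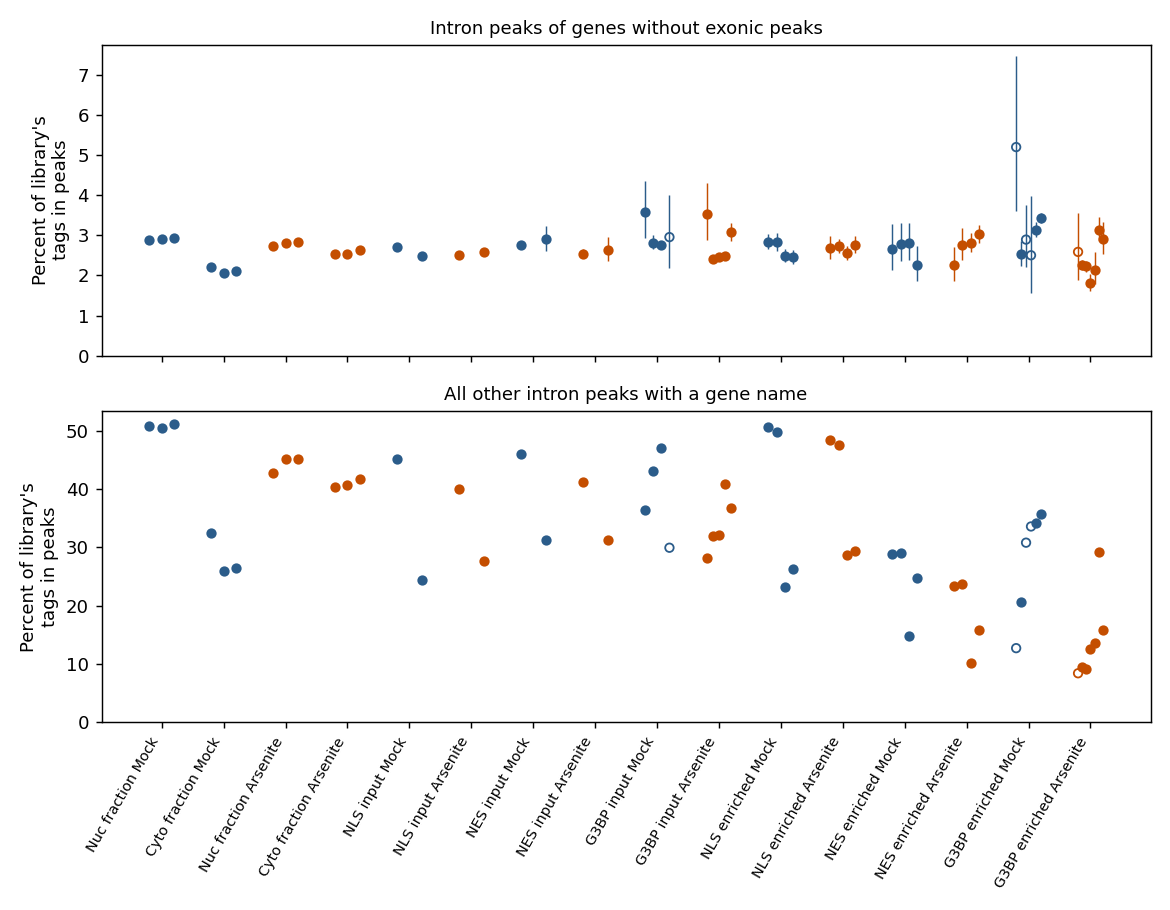
Share of each library's tags in peaks (percent, both axes from 0) that fell in the intron peaks of genes without exonic peaks (top) and in all other named intron peaks (bottom), for the 16 groups of libraries; 1 point is 1 library, blue is mock, orange is arsenite, hollow points are libraries under 2000 tags in peaks, and bars are 95% Wilson intervals of the counting error. The upper shares stay between 1.81 and 5.20% while the lower ones range from 8.41 to 51.2%.

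In the proximity libraries the member shares of NLS and NES overlapped. With libraries under 2000 tags left out, the mock enriched libraries held 2.45 to 2.84% in member peaks for NLS and 2.25 to 2.81% for NES, and the arsenite ones 2.55 to 2.77% and 2.25 to 3.03%. The G3BP enriched arsenite libraries held 1.81 to 3.14%. Other introns held 23.2 to 50.7% in NLS and 14.7 to 29.0% in NES mock libraries, 28.7 to 48.4% and 10.2 to 23.7% after arsenite, and 9.14 to 29.3% in G3BP arsenite libraries. Library sets differed within a group. In mock cells of JL0388 other introns held 49.7 and 50.7% in NLS against 28.9 and 29.0% in NES, and in JL1024 they held 23.2 and 26.3% against 14.7 and 24.8%, which overlap. Intervals of single libraries cover counting error only and take each tag as independent. Whether PCR copies of a molecule were counted as separate tags was not examined here. If they were, the intervals are too narrow.

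The summed level of the members was 9936 ± 47.4 CPM in mock nuclear and 7999 ± 229 CPM in mock cytoplasmic libraries (SD, n = 3 each), a ratio of 1.24. Genes with an exonic peak gave 1.59 and genes with 100 or more intron peaks 1.70, whereas 3'UTR peaks gave 0.252. After arsenite the members held 9923 ± 445 and 9541 ± 381 CPM, and here the fractions overlapped (9429 to 10292 and 9104 to 9803 CPM). The ratio was 1.04, against 1.05 and 1.03 for the other intron classes and 0.750 for 3'UTR peaks. Treatment left the nuclear sum at 0.999 of its mock value and took the cytoplasmic sum to 1.19 of it.

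In mock cells the summed level of peaks inside pseudogenes was higher in the cytoplasm, in the members and in the other intron classes. In the members those 274 peaks held 166 ± 17.9 CPM in mock nuclear and 974 ± 177 CPM in mock cytoplasmic libraries, 5.85 times as much. The groups did not overlap. A sum leans on the highest peaks. Of 229 such peaks tested singly, 21.8% had a log2 difference (nuclear minus cytoplasmic) above 0, with a median of -0.31. Over all intron peaks of each of the 148 tested host genes, 47.3% lay above 0, with a median of -0.08. After arsenite they held 260.1 ± 28.6 and 417 ± 32.2 CPM, so the cytoplasmic level was 0.428 of mock and the nuclear level 1.56 of it. Pseudogene peaks in genes with an exonic peak held 394 ± 6.36 CPM in mock nuclear and 692 ± 64.2 CPM in mock cytoplasmic libraries, and those in genes with 100 or more intron peaks 209 ± 9.99 and 316 ± 66.7 CPM. After arsenite these were 379 ± 16.0 and 484 ± 17.2 CPM, and 219.6 ± 5.38 and 226 ± 7.05 CPM, of which the last pair overlapped. Outside pseudogenes the members' nuclear over cytoplasmic ratio was 1.39 in mock, and without the 20 highest peaks as well it was 1.52. Pseudogene overlap and the removal of the 20 highest peaks were chosen after these values had been seen.

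The ratio also varied with the number of peaks in the gene, a grouping likewise chosen after seeing the data. In mock cells the members' summed nuclear over cytoplasmic ratio was 0.944 for genes with 1 peak, 0.872 for 2 to 9, 1.46 for 10 to 49 and 1.92 for 50 to 99 peaks. Outside pseudogenes these were 0.977, 1.03, 1.62 and 1.92. The bin of 2 to 9 peaks holds ATF3 and FRMD5, and without these 2 genes, an alternative chosen after seeing the data, its ratio was 1.03 and the fractions overlapped. Genes with an exonic peak gave 1.39, 1.50, 1.59 and 1.62 in the same bins. For members with 1 peak the libraries of both fractions overlapped: 548 ± 10.1 CPM in nuclear and 580.5 ± 34.6 in cytoplasmic mock libraries. For members with 50 to 99 peaks they did not, at 1755 ± 39.0 and 916 ± 129 CPM. After arsenite every bin of members lay between 0.942 and 1.13.

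**Figure D2:**
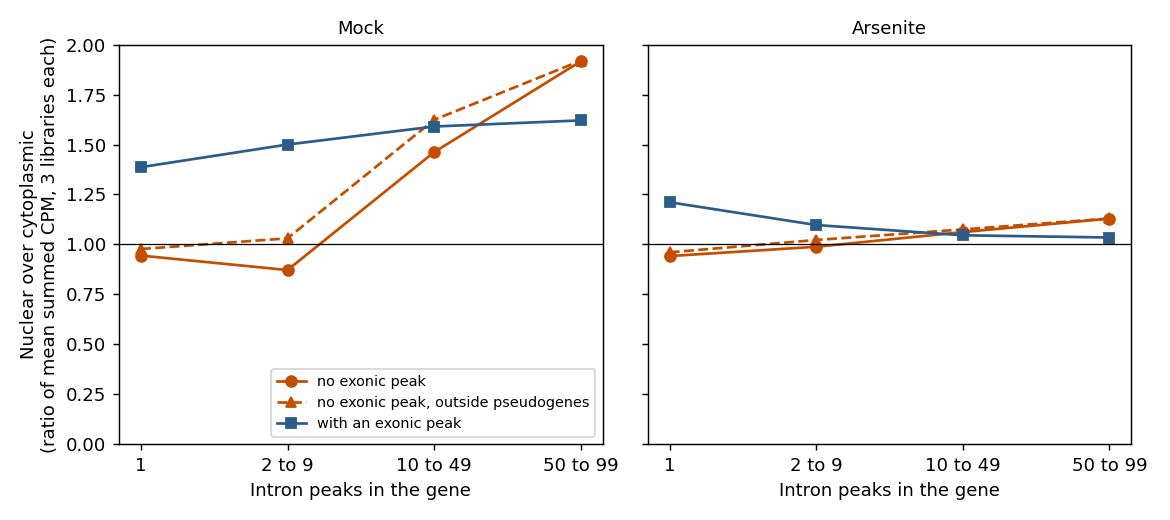
Nuclear over cytoplasmic ratio of summed CPM (means of 3 libraries each, linear axis from 0) by the number of intron peaks in the gene, in mock (left) and arsenite (right) cells; circles are genes without exonic peaks, triangles the same outside pseudogenes, and squares genes with an exonic peak. In mock cells the circles run from 0.944 at 1 peak to 1.92 at 50 to 99 peaks and the squares from 1.39 to 1.62.

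To ask which genes had different HuR CLIP levels in nucleus and cytoplasm, peaks were summed per gene and annotation class. The sums were tested with limma on log2(CPM + 2.28), with Benjamini-Hochberg adjustment over all 27489 such units at 0.05. Every library is a HuR immunoprecipitation, and RNA amounts were not measured separately. A difference in level, here and below, can therefore reflect the amount of RNA in a fraction or treatment as well as binding. Of the 3125 member genes, 2728 were non-zero in at least 3 fraction libraries and were tested. In mock cells 275 were higher in the nucleus and 109 in the cytoplasm. Over all units 12.9% were called higher in the nucleus and 14.6% higher in the cytoplasm, 27.4% in either direction. With edgeR and TMM scaling the members split into 132 and 88. The members' median log2 difference was 0.15, against 0.05 over all units. Intron units of genes with an exonic peak had a median of 0.46, with 1756 higher and 58 lower of 6052, and genes with 100 or more intron peaks had 0.77, with 415 higher and 1 lower of 442. The classes differ in the number of peaks summed per gene, and the added 2.28 CPM draws differences of low sums towards 0. Their medians and counts at gene level are therefore not like for like. The called members had a median of 88 tags over the 12 libraries and the others 12.

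Of the 109 genes called higher in the cytoplasm, 33 were pseudogene hosts and 76 were not. Of 148 tested genes with a peak in a pseudogene, 21 were called higher in the nucleus and 33 in the cytoplasm. Of the 2580 without one, 254 were higher in the nucleus and 76 in the cytoplasm. Over all units 14.6% were higher in the cytoplasm, against 22.3% of the hosts and 2.95% of the other members.

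**Figure D3:**
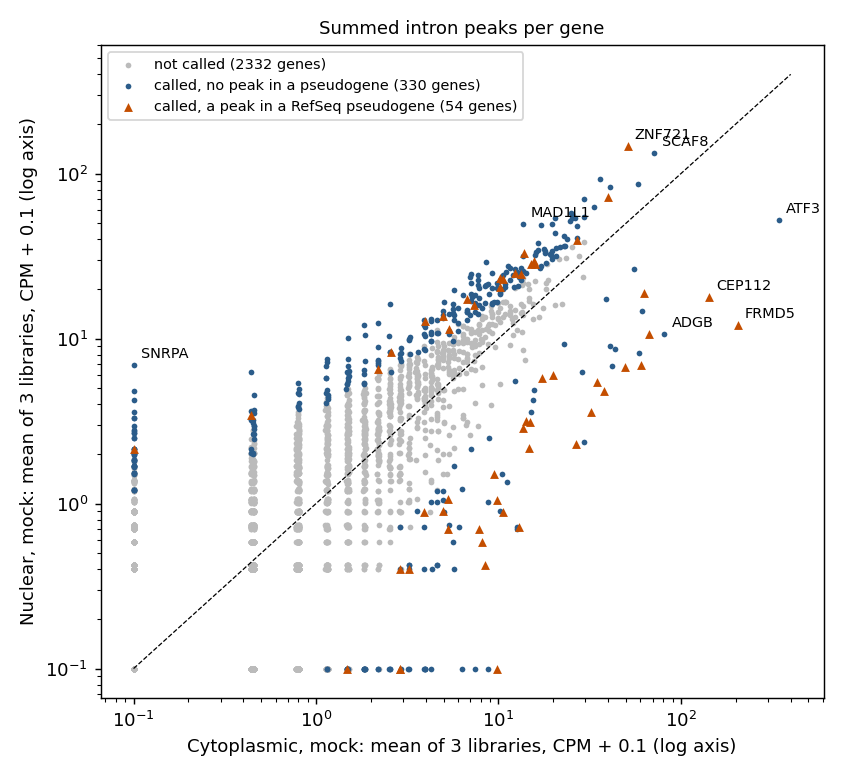
Mean CPM of 3 mock nuclear libraries against mean CPM of 3 mock cytoplasmic libraries (both log axes, 0.1 added) for the tested genes without exonic peaks, leaving out genes of chromosome Y; grey is not called, blue is called without a peak in a pseudogene, and triangles are called with one. The dashed line marks equal levels; ATF3 (52.3 and 345 CPM), FRMD5 and CEP112 lie far on the cytoplasmic side.

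ATF3, a transcription factor gene induced by stress, had the highest summed level of any member gene and was mainly cytoplasmic. It is not a pseudogene host here. Its 7 intron peaks held 45.2, 51.8 and 59.9 CPM in the mock nuclear libraries and 319, 305 and 411 CPM in the mock cytoplasmic ones. After arsenite the values were 102, 110.4 and 106 in the nucleus and 172, 182 and 153 in the cytoplasm. No libraries overlapped in any of these 4 contrasts. The cytoplasmic level was 6.60 times the nuclear level in mock and 1.59 times in arsenite cells (limma, log2 difference of nuclear minus cytoplasmic -2.67 ± 0.14 SE and -0.66 ± 0.14). Arsenite lowered it 2.04-fold in the cytoplasm and raised it 2.03-fold in the nucleus (adjusted p = 7.27e-08 and 1.11e-07). A single peak at chr1:212590256-212590276 on the plus strand held 1829 of the 2305 ATF3 tags, with 36.9 ± 7.22 CPM in mock nuclear and 300.3 ± 51.7 CPM in mock cytoplasmic libraries. The annotation of the table calls it intron.

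FRMD5, which encodes a FERM-domain protein of cell junctions, showed the largest fitted cytoplasmic excess of the named genes (log2 difference -4.02), and most of its tags lay in the beta-actin pseudogene ACTBP7 (chr15:43988478-43990265). Its 8 peaks held 10.2, 20.9 and 4.83 CPM in mock nuclear and 172, 226 and 217 CPM in mock cytoplasmic libraries, 17.1 times as much (limma, adjusted p = 1.28e-24). The cytoplasmic level fell 3.31-fold with arsenite, to 62.8, 67.1 and 56.3 CPM. CEP112, a centrosomal protein gene, held 11.7, 18.2 and 23.2 CPM in mock nuclear and 104, 153 and 173 CPM in mock cytoplasmic libraries. Of its 797 tags, 686 lay in 1 peak at chr17:66000473-66000493 inside the pseudogene LOC107984972. Other hosts of the same kind were BCL2L14 with the prothymosin alpha pseudogene PTMAP9 (6.81 and 60.1 CPM in mock nucleus and cytoplasm), STEAP1B with the elongation factor pseudogene EEF1A1P6 (6.64 and 49.4 CPM), ICA1L with the keratin pseudogene KRT8P15 (3.50 and 32.1 CPM) and AP3B2 with LOC100421235 (2.20 and 26.5 CPM). All 4 were called higher in the cytoplasm.

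Cytoplasmic excess was also measured in genes without a pseudogene under their peaks. ADGB, the gene of androglobin, held 14.6, 4.55 and 12.6 CPM in mock nuclear and 77.6, 84.5 and 81.2 CPM in mock cytoplasmic libraries, 7.68 times as much (limma, adjusted p = 7.62e-17). CSNK2A2, a catalytic subunit of casein kinase 2, held 7.29, 8.18 and 8.69 against 40.4, 81.5 and 54.8 CPM. MRPS22, a protein of the mitochondrial ribosome, held 2.91, 0 and 3.86 against 23.4, 38.7 and 26.4 CPM. Its main peak at chr3:139014577-139014597 carries the gene's name in the table but lies outside the RefSeq span of MRPS22. Whether other near-identical copies supply such tags was not tested.

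Nuclear excess was measured in genes of several functions. MAD1L1, a spindle checkpoint gene with 75 intron peaks, held 47.3 to 51.0 CPM in the 3 mock nuclear and 13.2 to 13.8 CPM in the 3 mock cytoplasmic libraries, a 3.64-fold difference (limma, adjusted p = 2.66e-10). POLE, the catalytic subunit of DNA polymerase epsilon, held 14.6, 8.18 and 8.69 against 2.13, 1.02 and 2.11 CPM. SNRPA, a protein of the U1 spliceosomal particle, held 4.37, 6.36 and 9.66 CPM in the nucleus and no tag in the cytoplasmic libraries, at least 2.17-fold higher by a floor of 3 tags per library. MAP2K2 (the kinase MEK2) was 6.93-fold, XPO5 (the exporter of microRNA precursors) 5.86-fold, KLHL29 6.58-fold, MLXIPL (a glucose-responsive transcription factor) 7.14-fold and SMG6 (an endonuclease of nonsense-mediated decay) 3.48-fold higher in the nucleus. EIF3D, a translation initiation factor subunit, held 6.17 ± 2.25 and 0.340 ± 0.588 CPM, and FHIP2B 4.70 ± 1.73 CPM and no tag. No libraries of the fractions overlapped in any of the genes named here, since the choice of names required it.

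SCAF8 and ZNF721 had the highest summed levels after ATF3, sums that are not per length. SCAF8, which encodes a protein that binds the tail of RNA polymerase II, has 97 intron peaks and held 141, 128 and 130.4 CPM in mock nuclear and 74.5, 73.3 and 66.4 CPM in mock cytoplasmic libraries. ZNF721, a zinc finger gene, held 144, 154 and 144 against 54.2, 44.8 and 53.8 CPM. The nuclear libraries were higher in both genes without overlap. Among the 10 genes with the highest summed levels, C1QTNF3-AMACR, INVS, NINL, PRH1 and ANAPC4 were also called higher in the nucleus, by 1.48-fold, 1.81-fold, 2.03-fold, 2.37-fold and 2.60-fold.

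Single peaks gave a different balance from whole genes. Of 16724 member peaks, 13609 were tested among 334689 peaks, and in mock cells 86 were higher in the nucleus and 108 in the cytoplasm. Over all peaks 1.02% were higher in the nucleus and 2.07% in the cytoplasm, 3.09% in either direction. Peak by peak the median log2 difference was 0.10 in the members, 0.15 in genes with an exonic peak and 0.16 in genes with 100 or more intron peaks. The members had 0.632% higher and 0.794% lower. The other classes had 0.993% higher and 0.132% lower, and 1.22% higher and 0.0653% lower, in that order. In pseudogenes 0 were higher and 38 lower of 229, and outside them 86 were higher and 70 lower of 13380. The split depended on scaling: with values scaled to tags in peaks it was 129 and 105 and with differences centred on their median 52 and 127. With edgeR and TMM, which change tool and scaling at once, it was 11 and 80, and the split with edgeR alone is given below. Without the second mock cytoplasmic library 127 peaks were called, 32 higher and 95 lower. Besides ATF3, FRMD5 and CEP112, peaks with cytoplasmic excess lay in HSF5 (chr17:58475367-58475387, 3.29 ± 2.02 against 34.1 ± 7.52 CPM), CSNK2A2 (chr16:58163241-58163261, 4.08 ± 1.28 against 37.4 ± 12.8), MADD (chr11:47318199-47318219, 6.35 ± 2.12 against 37.1 ± 16.0) and MASP1 (chr3:187251393-187251413, 13.3 ± 1.12 against 44.5 ± 3.97). HSF5 is a heat shock factor gene, and MASP1 encodes a complement protease made in liver. A peak in INO80, a chromatin remodeller gene, held 5.69 ± 0.206 CPM in the nucleus and no tag in the cytoplasm (chr15:41005944-41005964).

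**Figure D4:**
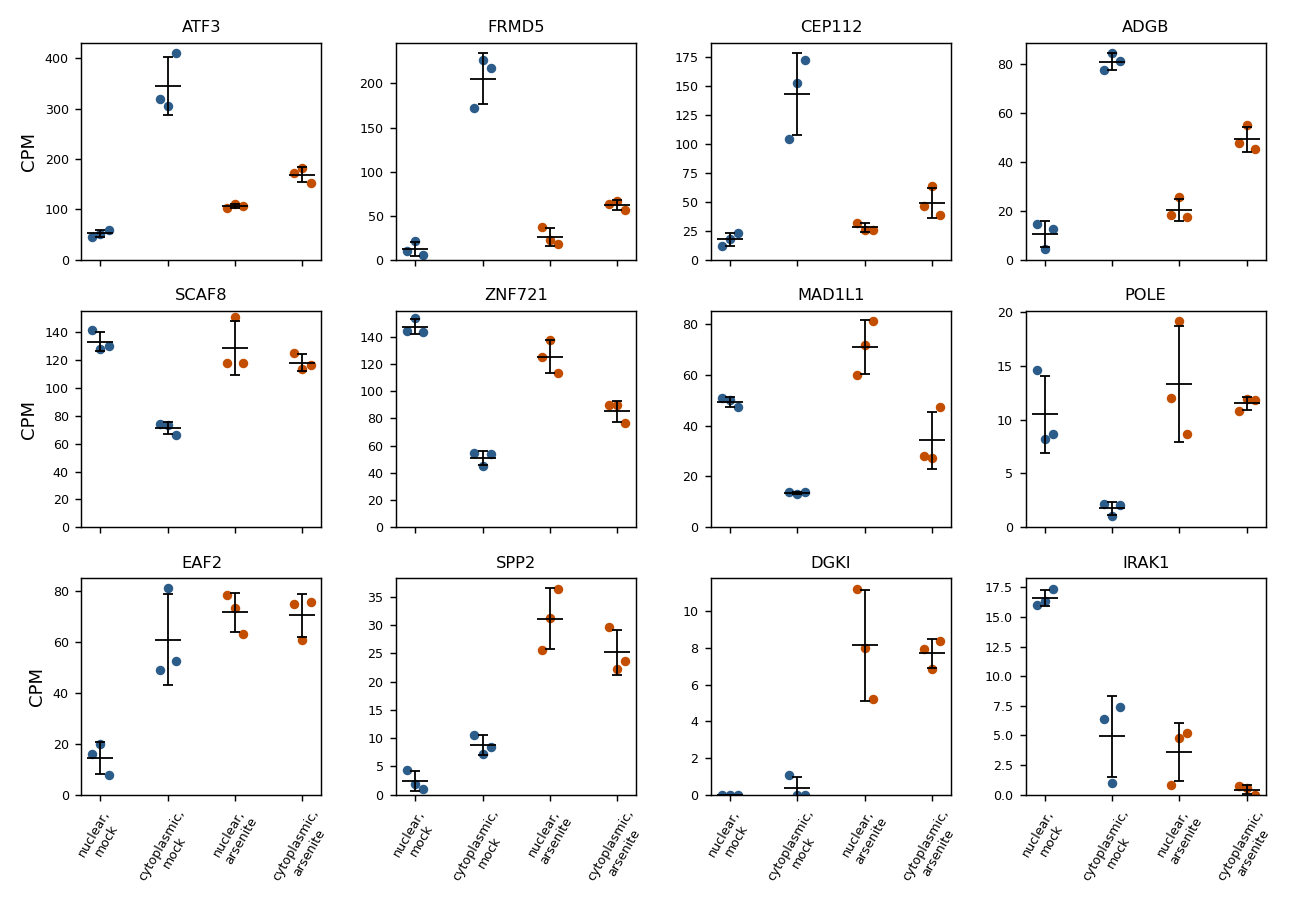
CPM of 12 member genes (linear axes from 0) in the 4 groups of fraction libraries; points are libraries, bars are the mean ± SD of 3. ATF3, FRMD5, CEP112 and ADGB are highest in the mock cytoplasm (345, 205, 143 and 81.1 CPM), MAD1L1, POLE and ZNF721 are lowest there, and EAF2, SPP2 and DGKI are higher in the nucleus after arsenite.

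After arsenite the fractions were hard to tell apart. Of 2728 member genes, 11 were higher in the nucleus and 22 in the cytoplasm, against 1.01% and 2.32% of all units in these directions and 3.33% in either. Scaled to tags in peaks the split was 18 and 21. The median log2 difference of the members was 0.02. These counts rest on few libraries, since leaving out the second or the third arsenite nuclear or any arsenite cytoplasmic library gave 19 to 21 calls. MAD1L1 stayed higher in the nucleus (60.1, 72.0 and 81.4 CPM against 28.2, 27.3 and 47.3; limma, adjusted p = 0.00044), as did MAP2K2 (10.1 ± 0.951 against 2.36 ± 0.415 CPM). HFM1, a gene of a meiotic helicase, held 20.8, 19.2 and 23.4 CPM in the nucleus and 9.39, 7.39 and 2.09 CPM in the cytoplasm. C7orf50 was 3.16-fold, the pseudogene SMG1P5 3.42-fold and the transporter gene SLCO5A1 6.37-fold higher in the nucleus. On the cytoplasmic side, DCC, a netrin receptor gene, held 1.89 ± 1.83 CPM in the nucleus and 7.22, 10.2 and 9.04 CPM in the cytoplasm. MRPS22 was 2.78-fold, FRMD5 2.38-fold, BMERB1 2.68-fold, NIM1K 5.76-fold and SORCS3 5.64-fold higher in the cytoplasm. Of 22 alternatives, 10 ended the SORCS3 call (limma or edgeR, adjusted p up to 0.262), 5 the DCC call (up to 0.116), 2 the MRPS22 call and 1 the NIM1K call, most of them by leaving out 1 library. At the level of peaks 2 were higher and 8 lower, against 0.0992% and 0.142% of all peaks, 0.241% in all. Scaled to tags in peaks the split was 5 and 5. Leaving out single arsenite libraries gave 1 to 5.

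In the cytoplasm arsenite raised more member genes than it lowered. Of 2728, 137 were higher and 42 lower than in mock cells, against 6.81% and 6.01% of all units and 12.8% in either direction. With edgeR and TMM scaling the split was 84 and 56. The median was 0.13, and 0.06 over all units. This contrast and that between the mock fractions share the mock cytoplasmic libraries, so a gene low there is high in both. Leaving out the third arsenite cytoplasmic library gave 104 calls, 79 higher and 25 lower, and leaving out the second gave 119, 90 higher and 29 lower.

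KLC2, a kinesin light chain gene with a single peak at chr11:66260182-66260202, went from 0, 2.04 and 1.05 CPM to 18.8, 14.2 and 17.4 CPM in the cytoplasm, 16.3-fold (limma, adjusted p = 2.1e-09). In the nucleus it went from 8.74, 5.46 and 2.90 to 18.4, 19.2 and 32.9 CPM, also without overlap. POLE rose 6.58-fold, from 1.75 ± 0.635 to 11.5 ± 0.610 CPM. F13B, the B subunit of coagulation factor XIII, rose 10.7-fold, the histone methyltransferase gene SUV39H1 5.53-fold, MYRFL 3.14-fold and the pseudogene OR2AL1P 9.11-fold. DGKI, a diacylglycerol kinase gene, had 1 cytoplasmic mock library with a tag (1.06 CPM) and held 7.94, 6.82 and 8.35 CPM after arsenite. DOCK6 (0.355 ± 0.614 to 5.11 ± 0.982 CPM), SLC45A2 (0.691 ± 0.599 to 6.04 ± 1.48) and ATRNL1 (1.39 ± 0.565 to 7.59 ± 2.82) rose as well. The ATRNL1 call was lost without the first arsenite cytoplasmic library (limma, adjusted p = 0.0833).

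The 10 genes named for a fall in the cytoplasm were also called higher in cytoplasm than in nucleus among the mock libraries, which both contrasts use. FRMD5 fell 3.31-fold, CEP112 2.90-fold, BCL2L14 3.31-fold, ICA1L 5.60-fold, STEAP1B 3.24-fold, CLEC2L 4.62-fold and DZIP1L 5.27-fold, all hosts of a pseudogene under their peaks. CHRM2, a muscarinic receptor gene with 1 peak and no pseudogene, went from 12.5 ± 3.47 to 1.99 ± 0.246 CPM, and PREX2 and EPHB1 fell 6.68-fold each. Of the peaks, 45 were higher and 35 lower with arsenite, against 0.469% and 0.646% of all peaks, 1.11% in all, and in pseudogenes 0 were higher and 15 lower of 229. Leaving out the second or the third mock, or any arsenite, cytoplasmic library gave 32 to 50 called peaks. With differences centred on their median the peaks split into 31 and 46, and with edgeR and TMM into 46 and 22.

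In the nucleus arsenite changed few member genes. Of 2728, 37 were higher and 23 lower, against 5.07% and 1.73% of all units and 6.81% in either direction, with a median of 0.00. Without the third arsenite nuclear library 37 genes were called, and without the second 38. EAF2, which encodes a factor that stimulates transcript elongation, went from 14.6 ± 6.26 CPM (SD, n = 3) to 78.5, 73.6 and 63.2 CPM, 4.92-fold (limma, adjusted p = 2.48e-13). The mock cytoplasm already held 48.9, 81.5 and 52.7 CPM, and the arsenite cytoplasm 75.1, 60.8 and 75.8 CPM. Of its 800 tags 785 lay in 1 peak at chr3:121848597-121848617, which the table also annotates as downstream of a gene end. SPP2, the gene of a secreted liver phosphoprotein, went from 4.37, 1.82 and 0.966 to 25.6, 31.2 and 36.4 CPM in the nucleus, 13.0-fold, all in 1 peak at chr2:234072905-234072925.

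DGKI had no tag in the mock nuclear libraries and held 5.20 to 11.2 CPM in all 3 after arsenite, at least 2.44-fold more. AP3B2 rose 7.13-fold, the phosphodiesterase subunit gene PDE6G 7.68-fold, FMO4 9.95-fold and WDR25 8.31-fold. CAPN2, a calpain gene, had no tag in mock and 4.96 ± 1.04 CPM after arsenite, at least 1.49-fold more. AP3B2, FMO4 and WDR25 have a pseudogene under their peaks. Among the genes that fell, IRAK1, a kinase of Toll-like receptor signalling, went from 16.0, 16.4 and 17.4 to 0.801, 4.80 and 5.20 CPM in its single peak at chrX:154014355-154014375. It fell in the cytoplasm too, from 4.93 ± 3.42 to 0.430 ± 0.380 CPM. PKM, the pyruvate kinase gene, went from 32.1, 32.7 and 40.6 to 18.4, 13.6 and 13.0 CPM over 17 intron peaks. TRIM27 fell 4.81-fold, CROCC (rootletin, of the ciliary rootlet) 11.6-fold and RNF43 (a ubiquitin ligase of Wnt receptors) 2.32-fold. Of these 5 genes CROCC alone has a pseudogene, PDE4DIPP9, under 1 of its 3 peaks. At the level of peaks 16 were higher and 8 lower, against 0.26% and 0.0986% of all peaks, 0.358% in all, and scaling to tags in peaks gave 13 and 16, and edgeR with TMM 21 and 2. Without single nuclear libraries 11 to 16 peaks were called.

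The arsenite effect differed between the fractions for 87 member genes by the interaction term of the same fit. In 38 the nuclear effect was above the cytoplasmic one and in 49 below it, against 7.05% and 3.99% of all units and 11.0% in all, and the median was -0.12 against -0.05. The order of these counts turned with scaling: they were 40 and 36 with differences centred on their median and 36 and 26 with edgeR and TMM. Without the third arsenite cytoplasmic library 57 genes were called, 30 above and 27 below, and without the second 58. FRMD5, ATF3, CEP112, BCL2L14, CSNK2A2 and ICA1L were among the first and POLE, TRIM27 and PUDP among the second. The POLE call was lost without the first mock or the third arsenite nuclear library (limma, adjusted p up to 0.0659). In ATF3 arsenite raised the nuclear level and lowered the cytoplasmic level, whereas in POLE the cytoplasmic level rose and the nuclear level was 10.5 ± 3.55 CPM in mock and 13.3 ± 5.38 CPM in arsenite cells.

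The calls were repeated with edgeR on the recovered whole tags. Between mock fractions it called 183 member genes higher and 79 lower in the nucleus, against 10.2% and 12.4% of all units (22.6% in all). Between arsenite fractions it called 25 and 26, against 1.55% and 3.1% (4.65% in all). For arsenite against mock it called 117 higher and 43 lower in the cytoplasm, against 6.36% and 6.61% (13.0% in all), and 26 and 12 in the nucleus, against 4.1% and 1.55% (5.66% in all). For the interaction it called 32 and 47, against 6.53% and 4.11% (10.6% in all). Of the peaks it called 19 higher and 71 lower between mock fractions, against 0.324% and 1.32% of all peaks (1.64% in all), and 10 and 12 between arsenite fractions, against 0.166% and 0.242% (0.408% in all). For arsenite against mock the peak counts were 30 and 37 in the cytoplasm, against 0.335% and 0.671% (1.01% in all), and 12 and 4 in the nucleus, against 0.221% and 0.072% (0.293% in all).

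The proximity and input libraries are separate from the fraction libraries and most hold far fewer tags. Among the enriched libraries 974 member genes were tested, and limma called none in 4 contrasts, as it called 0.0% of all units. At an unadjusted p under 0.05, 128 were counted for NLS against NES in mock cells, 102 for NLS against NES in arsenite cells, 52 for G3BP against NES in arsenite cells and 53 for arsenite against mock in G3BP libraries. These are 13.1%, 10.5%, 5.34% and 5.44% of the members, against 13.0%, 13.1%, 10.1% and 10.3% of all units at the same limit and 5% by chance alone. On the recovered tags edgeR called 0, 2, 12 and 4 of them, against 0.0%, 1.45%, 4.19% and 0.157% of all units. By direction, it called 1.44% of all units higher and 0.0149% lower in NLS than in NES after arsenite, 4.12% higher and 0.0671% lower in G3BP than in NES, and 0.082% higher and 0.0745% lower in arsenite than in mock G3BP libraries. The 2 higher in NLS than in NES after arsenite were INO80 (14 tags in 4 of 4 NLS libraries, no tag in NES) and ZSWIM5 (12 tags in 3 of 4, no tag in NES). All 12 called between G3BP and NES were higher in G3BP. ATF3 held 123 tags in 5 of 7 G3BP libraries and 28 in 3 of 4 NES libraries, with medians of 72.5 and 23.0 CPM. HSF5 held 28 tags in 6 of 7 and 3 tags in 3 of 4. SPP2 held 7 tags in 4 of 7 libraries and none in NES, and limma called it once libraries under 2000 tags were left out (log2 difference 2.73 ± 0.70 SE, adjusted p = 0.0485). BCO2, CTNNA2, OCA2, PRMT9 and UROD were called from tags in 1 library each, so these calls rest on that library.

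Over the 17 input libraries, limma called none of 1970 member genes between arsenite and mock, with 90 (4.57%) at an unadjusted p under 0.05, against 7.44% of all units and 5% by chance, and 0.0% of all units called after adjustment. EdgeR called 13 higher and 14 lower, against 3.42% and 0.678% of all units, 4.1% in either direction. On simulated inputs this edgeR test also called 15 unchanged units beside 34 and 91 of 100 changed ones, more than its threshold promises. DGKI held 36 tags in 5 of 9 arsenite inputs and 1 tag in 8 mock inputs (edgeR, adjusted p = 0.0116). EAF2 held 139 tags in 7 of 9 and 55 in 5 of 8, and AP3B2 70 in 8 of 9 and 21 in 4 of 8. JMJD6 held 33 tags in 6 of 9 against 1, CYSTM1 102 in 5 of 9 against 8 in 5 of 8, and HSF5 112 in 7 of 9 against 12 in 5 of 8. In the fraction libraries JMJD6 was 4.63 ± 2.37 CPM in mock and 11.2 ± 0.860 CPM in arsenite nuclei. On the lower side, CROCC held 2 tags in 2 of 9 arsenite inputs and 26 in 5 of 8 mock inputs, and HFM1 180 tags in 9 of 9 and 392 in 8 of 8, with medians of 10.9 and 32.4 CPM. In the nuclear fraction DGKI, EAF2 and AP3B2 rose and CROCC fell, whereas JMJD6, HSF5, CYSTM1 and HFM1 were not called (limma, adjusted p = 0.0674, 0.111, 0.985 and 0.965). HSF5 held 42.0 ± 9.52 CPM in the mock and 26.6 ± 4.85 CPM in the arsenite cytoplasm, without overlap and not called (limma, adjusted p = 0.132). In the nucleus it held 6.73 ± 3.58 and 11.5 ± 1.69 CPM, and the difference between the 2 effects was called (interaction 1.31 ± 0.38 SE, limma, adjusted p = 0.0126). CYSTM1 held 5.52 ± 2.31 and 5.73 ± 2.05 CPM and HFM1 22.6 ± 6.04 and 21.1 ± 2.11 CPM in mock and arsenite nuclei. The HFM1 level differed between library sets: in JL1024 it was 89.0, 99.2 and 131 CPM in mock and 33.2, 48.9 and 71.7 CPM in arsenite inputs, and in JL0388 6.79 to 13.1 CPM against 6.10 to 10.9 CPM. The JL1024 libraries held 2 to 343 HFM1 tags, 2 and 12 in those at 89.0 and 99.2 CPM and 6 in each of those at 33.2 and 48.9 CPM. The groups did not overlap in JL1024 and overlapped in JL0388. They also overlapped in JL0361, with 50.6 and 14.2 CPM in mock and 58.6, 7.21 and 4.14 CPM in arsenite inputs, on 1 to 8 tags each. The inputs differ from the fraction libraries in line, APEX reaction and library set.

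**Figure D5:**
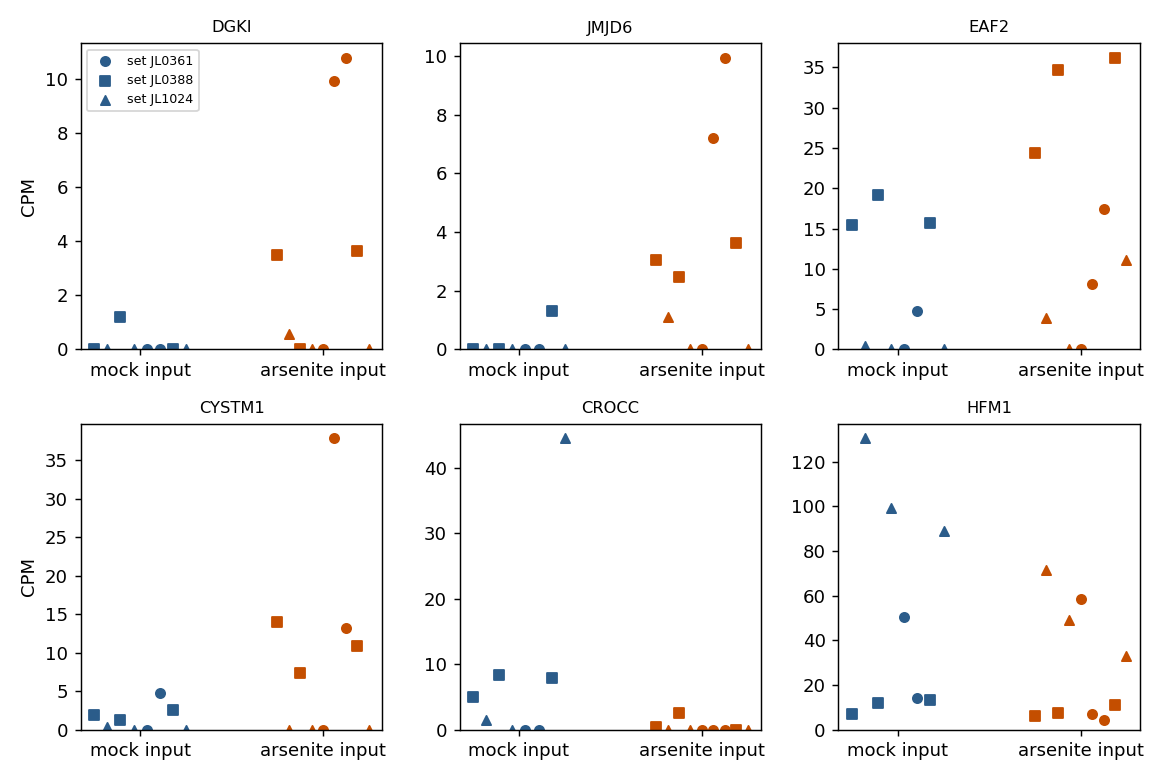
CPM of 6 member genes (linear axes from 0) in the 8 mock and 9 arsenite input libraries; 1 point is 1 library and the marker shape is the library set. Many libraries are at 0, DGKI and JMJD6 have 1 mock library each above 0, and the HFM1 levels of set JL1024 lie above those of JL0388 in both treatments.

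Direction was compared between the fraction libraries and the independent ones, as a description. Of 124 member genes higher in the arsenite cytoplasm that had a value in the inputs, 91 (73.4%) were also higher there, against 63.6% of all measured members. Of 38 lower genes 14 (36.8%) were lower in the inputs, against 36.4%. For genes higher in the arsenite nucleus the count was 26 of 31 (83.9%), and for lower genes 10 of 19 (52.6%), against the same 63.6% and 36.4%. Of 198 genes higher in the mock nucleus, 160 (80.8%) were higher in NLS than in NES enriched mock libraries, against 69.7% of all measured members. Of 73 higher in the mock cytoplasm, 33 (45.2%) were lower in NLS, against 22.8%. Between arsenite fractions, 8 of 9 genes higher in the nucleus (88.9%) were higher in NLS after arsenite, against 63.6% of all measured members. Of 15 higher in the arsenite cytoplasm 7 (46.7%) were lower in NLS, against 32.1%. Genes of one such list share libraries. In other units the same shares were 72.0% and 16.9% for genes higher and lower in the arsenite cytoplasm, against 68.8% and 31.2% of all measured other units. They were 92.9% and 47.9% for those higher and lower in the arsenite nucleus, against the same base shares. For those higher in the mock nucleus and cytoplasm they were 89.9% and 46.3%, against 68.6% and 25.8%. Between arsenite fractions they were 73.1% and 60.1%, against 63.8% and 34.0%.

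Gene families are described by their counts, to be read against the 12.9% of all units called higher in the mock nucleus and 14.6% called higher in the mock cytoplasm. Counts this small single out no family. Of 406 zinc finger genes with a peak, 110 were members, with 661 peaks, and of 101 tested 9 were higher in the mock nucleus and 0 in the cytoplasm, with a median of 0.15. Besides ZNF721, these included ZNF33B (8.14 ± 7.17 against 2.47 ± 2.20 CPM) and ZNF841 (3.13 ± 1.32 against 0.351 ± 0.609), and 6 zinc finger genes rose in the arsenite cytoplasm, among them ZNF10 and ZNF609, against 6.81% of all units. Solute carriers had 67 members of 242, and of 55 tested 6 were higher in the mock nucleus and 4 in the cytoplasm. SLC22A9, an organic anion transporter gene, held 20.1 ± 5.08 against 7.68 ± 2.72 CPM, while SLC9C1 and SLC25A51, both pseudogene hosts, were higher in the cytoplasm (13.5 ± 3.52 and 19.8 ± 3.52 CPM). Of 11 tested ABC transporters 3 were higher in the nucleus, including ABCA6. Of 8 tested cytochrome P450 genes CYP2J2 alone was called (11.1 ± 0.535 against 5.24 ± 1.13 CPM).

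Membership follows from the choice and is given here as counts only, where 3125 of 13836 genes with a peak are members. Of 43 long neuronal adhesion genes with a peak, 21 were members. Of 20 tested 0 were higher in the mock nucleus and 3 in the cytoplasm, a share near that of all units. The 3 include LSAMP (10.6 ± 3.36 against 67.1 ± 17.7 CPM, with peaks in the pseudogene BZW1P2) and NLGN1 (no tag against 1.05 ± 0.0238 CPM). The NLGN1 call rests on a single tag in each mock cytoplasmic library. Of 29 glutamate and GABA receptor genes 20 were members, and GRM8 was called higher in the nucleus. None of 16 tested potassium channel genes and none of 11 tested collagens was called in any of the 5 gene contrasts. The members held 4 of 547 LINC and 3 of 460 antisense genes, of which SLC44A3-AS1 was higher in the mock nucleus (53.8 ± 2.60 against 26.2 ± 5.15 CPM).

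The genes nearest the limit of 100 intron peaks are given as a description. Just inside it, SCAF8 (97 peaks) held 133 and 71.4 CPM, FARS2 (90 peaks) 57.7 and 24.8 CPM and GPC5 (90 peaks) 31.6 and 27.7 CPM in mock nucleus and cytoplasm. Just outside it, PCCA and NSMCE2 (101 peaks each) held 65.3 and 33.5 CPM and 53.7 and 33.2 CPM, and MRTFA (103 peaks) 70.6 and 36.0 CPM. In all, 22 genes without an exonic peak had 100 or more intron peaks.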

How the data were processed

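The authors deposited 1 table of signal per peak and library, per the file headers with annotation class, gene name and strand. The deposited signal is the number of tags in a 20-nt peak divided by a library total: whole tags were recovered for 100% of values (tolerance 0.01), with totals of 4662 to 2622677. The authors also deposited a count of libraries with a tag per peak and group and a score per peak, neither of which is used here. Per the submitters' processing notes, Bowtie2, SAMtools, bedtools and HOMER and the build GRCh38.p14 were used; whether coordinates count from 0 or 1 is not given in the sources used here, and sequences were read taking them from 0. Of 395471 lines, 8257 repeats were dropped.

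Tests used limma 3.58.1 (lmFit, eBayes with trend, two-sided) on log2(CPM + 2.28). The pseudocount is the median over all 58 libraries of the lowest value above 0, which is the value of 1 tag. It is more than 1 tag in every fraction library and less than 1 tag in the shallowest libraries. Changes of low genes in the fractions are therefore understated. A fold change is a ratio of mean CPM. The 12 fraction libraries were fitted together, the 29 enriched with library set and the 17 inputs with line and set as covariates. edgeR 4.0.16 on the recovered tags was an alternative. Other alternatives were the pseudocount (4 times larger or smaller), the filter on low values, TMM, scaling to tags in peaks, centring, only the 2 groups compared, a replicate block, leaving out each library, libraries under 2000 tags or pseudogene peaks, and a limit of 50 peaks. Tested on simulated data, the gene test between mock fractions recovered 19 of 100 changes of 2-fold and 78 of 100 of 4-fold, with 4 unchanged units called, and the peak test 0 and 27 with 11 unchanged peaks called, more than the threshold promises. In the G3BP against NES test limma recovered 0 and 0 (0 unchanged called), and edgeR 0 and 16 (1). In the input test limma recovered 0 and 5 (0), and edgeR 34 and 91 (15, again more than the threshold promises). Recovery was counted over all changed units together and not by level. Whether these rates hold for members with few tags was not tested.

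Of 23 replicate pairs compared over their tags, 0 agreed within sampling noise at p over 0.05. Named genes are, per comparison, the 10 highest and 10 lowest called differences without overlap between groups, the 10 highest levels, the genes next to the limit and up to 3 called per family; named peaks are up to 4 per direction and the 10 highest. Genes named for the proximity and input libraries were chosen after their values were seen. The members and lists were chosen with earlier results of these data known. Genes of chromosome Y are not named. R 4.3.3, Python 3.11.15, pandas 2.3.3 and scipy 1.17.1 were used.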

Additional observations from a re-analysis of the deposited data

Results flagged for a closer look

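Among 24 combinations of group and share examined, 4 values, from 3 libraries, stood apart from their group, where chance gives about 1 in 20. The first G3BP enriched mock library held 5.20% of its tags in member peaks, the highest of 6, and the same 5.20% outside pseudogenes; it is among the libraries under 2000 tags in peaks. The first G3BP input mock library held 3.32% outside pseudogenes, the highest of 4. The first G3BP enriched arsenite library held 0.144% in member peaks inside pseudogenes, the lowest of 7, and is also under 2000 tags. No result of the fraction libraries uses these.

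For 20 named genes the effect of arsenite differed between nucleus and cytoplasm by limma's interaction term, all called at an adjusted p under 0.05 over all units. On the log2 scale, nuclear minus cytoplasmic effect, the difference was 2.78 for FRMD5, 2.55 for FMO4, 2.31 for SLC9C1, 2.23 for ASRGL1, 2.20 for CSNK2A2, 2.15 for both CHRM2 and BCL2L14, 2.13 for CEP112, 2.01 for ATF3 and 1.98 for ICA1L. It was -1.96 for both PUDP and SHPK, -1.80 for TRIM27, -1.76 for PDPR2P, -1.71 for LNP1, -1.67 for ASB9, -1.59 for both VPS52 and SYBU, -1.55 for BICDL1 and -1.52 for POLE. FRMD5, FMO4, SLC9C1, BCL2L14, CEP112 and ICA1L have a pseudogene under their peaks and the other genes of the first list do not. The calls of the first list held in all 21 alternatives run for each gene. In the second list those of PUDP and TRIM27 did, whereas the call was lost in 11 of 21 for SYBU, 6 each for BICDL1 and LNP1, 3 each for ASB9 and PDPR2P, 2 for POLE and 1 each for SHPK and VPS52, with limma or edgeR adjusted p up to 0.158. The third arsenite nuclear library ended the call of SYBU, BICDL1, LNP1, ASB9, PDPR2P, POLE and SHPK when left out, and the second arsenite cytoplasmic library those of SYBU, BICDL1, LNP1, ASB9 and PDPR2P.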

How the results depend on the processing

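Of the alternative values of the main results, 375 stayed within 1.5 times the main count or within 1 SD of the main share, and 55 moved further; a count has no direction to reverse, and the splits of calls that turned are given beside the counts above. The 130 named results are genes and peaks named for the size of a called difference, each in the comparison that named it. Other comparisons of these genes, and genes or peaks named only for level or family, are not among them. Of the 130, 92 stayed called in all alternatives run for them. Of 2839 alternative values of these, 212 were no longer called, 158 of them with 1 library left out. The cause of each shift below was not tested. Between mock fractions, called member genes numbered 384, and 220 with edgeR and TMM. Between arsenite fractions they numbered 33, and 51 with edgeR, with or without TMM. For arsenite against mock in the nucleus the 60 calls became 38 with edgeR and 35 with the 2 groups fitted alone. Called peaks between mock fractions numbered 194, 90 with edgeR, 91 with TMM and 71 with 2 groups; between arsenite fractions 10, 4 with the smaller pseudocount, 22 with edgeR, 22 for peaks above 0 in at least 6 libraries, 29 with TMM and 5 with 2 groups; in the cytoplasm 80, 44 with the smaller pseudocount and 32 with 2 groups; in the nucleus 24, 4 with 2 groups. In enriched and input libraries limma called 0; edgeR called 2 for NLS against NES in arsenite, 12 for G3BP against NES, 4 for arsenite against mock G3BP and 27 for inputs, and limma without libraries under 2000 tags called 1 in each G3BP comparison (SPP2 and ZNF487).

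The log2 ratio of shares between mock fractions was 0.45, 0.31 over library totals and 0.35 for genes under 50 peaks; between arsenite fractions 0.12 and, over library totals, 0.057; for arsenite over mock 0.27 in the cytoplasm, 0.20 under 50 peaks, and -0.06 in the nucleus, -0.00188 over library totals. Leaving out 1 library gave 300 to 372 genes between mock fractions, 19 to 40 between arsenite fractions, 104 to 199 in the cytoplasm, 37 to 64 in the nucleus and 57 to 108 for the interaction; 127 to 181, 1 to 15, 32 to 78 and 11 to 29 peaks; and share ratios of 0.43 to 0.47, 0.11 to 0.14, 0.25 to 0.30 and -0.07 to -0.04. Replicate numbers did not pair the samples (correlations of same-numbered deviations -0.0476 to 0.0277); with a replicate block 383, 34, 178, 60 and 88 genes and 205, 15, 84 and 26 peaks were called. In enriched and input comparisons leaving out 1 library left 0 calls. Members called between mock fractions had a median of 88 tags and the others 12, and 68 of the 384 called had under 20 tags; the part of depth in the calls was not tested. The median log2 difference over all units or peaks also moved with the tool and with TMM. For peaks in the arsenite cytoplasm it was 0.09 with limma, 0.28 with edgeR and 0.61 with edgeR and TMM. For NLS against NES in mock it was 0.41 with limma and 1.22 with edgeR.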
